A study of Mus musculus with 36 samples.

Results

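The 10 genes described here are products that Sertoli cells make and, in part, secrete: Amh, Ptgds, Cst9, Aard, Mmd2, Cbln4, Nt5e, Adamts16, Tesc and Defb19. They were taken by symbol, and all 10 of them were found among the 21699 genes in each of the 2 count tables. Levels are given as CPM, a gene's count scaled to the normalized total of its library. A member was tested at a stage where 2 or more of its 12 libraries reached 1 CPM. This held for 9 members at E11.5, all but Defb19, and for all 10 at E12.5. At E11.5 Ptgds, Cst9 and Tesc met this rule only through their XY control libraries.

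Sertoli cells are the supporting cells of the testis. They arise when the Y-linked gene Sry switches on Sox9 in the supporting cells of the XY gonad, and they then enclose the germ cells in cords and direct the rest of the testis. AMH, the anti-Müllerian hormone, is their best known hormone: it is a ligand of the TGF-beta family that makes the Müllerian ducts regress in males, so that no uterus forms. The same supporting cells become pre-granulosa cells in an ovary, where Amh is normally silent at these stages.

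The study asked what happens to sex determination in mouse embryos without miR-17~92, a cluster of microRNA genes transcribed as 1 precursor. KO embryos were miR-17~92 del/del and carried the transgene Tg(CAG-cre)1Nagy, so that they had lost the cluster through a Cre recombinase driven by the ubiquitous CAG promoter, on a C57BL/6 and 129S4/SvJae background, so every tissue and not only the gonad lacked it. Control embryos are labelled WT and kept the cluster. Whether they carried the Cre transgene or a floxed allele is not given in the sources used here. Control and KO embryos of both sexes gave 4 genotypes at the embryonic stage E11.5 and again a day later at E12.5. Each genotype had 3 replicates per stage, and each replicate pooled 2 pairs of gonads. E11.5 RNA came from gonads with the mesonephros attached and was made into libraries with the NEBNext Ultra II Directional kit. E12.5 RNA came from gonads freed of the mesonephros and was made into libraries with the TruSeq stranded mRNA kit. A difference between stages can therefore not be told apart from one of tissue or kit, and the stages were fitted separately. Nothing more is given on how the pools were drawn, so p-values measure the spread between these samples.

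Total counts were 17150620 to 34077443 per library at E11.5 and 11877379 to 44155275 at E12.5. The deletion itself could not be read from these tables, because the mature microRNAs are not captured and the Mir17 gene held 0 to 3 counts in every library. The paper verified it from its mapped bulk reads, which were absent over the cluster in KO gonads. Mir17hg, the host transcript of the cluster, was counted over sequence that also lies outside the deletion. It was higher in every KO library than in any control library, with 98.2 to 154 CPM against 17.6 to 44.6 CPM at E11.5 and 66.7 to 83.8 CPM against 13.4 to 37.3 CPM at E12.5.

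The mature microRNAs of the cluster are shown because their seeds, bases 2 to 8 in capitals, decide which transcripts they can pair with. The sequences are from RefSeq (GRCm38.p6), where all 6 lie on the plus strand of chromosome 14.
miR-17-5p: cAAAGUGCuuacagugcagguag
miR-20a-5p: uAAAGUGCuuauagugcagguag
miR-18a-5p: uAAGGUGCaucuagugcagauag
miR-19a-3p: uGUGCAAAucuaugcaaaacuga
miR-19b-3p: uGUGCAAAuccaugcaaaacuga
miR-92a-3p: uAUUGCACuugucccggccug

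The first 2 microRNAs share a seed, as do the miR-19 pair, while miR-18a and miR-92a each have their own. A transcript that pairs with a seed holds its reverse complement, which is GCACTTT for miR-17 and miR-20a. The match is GCACCTT for miR-18a, TTTGCAC for the miR-19 pair and GTGCAAT for miR-92a. In the longest annotated 3′ UTR of each member, on the transcribed strand, 1 of the 10 held such a match. It was Cbln4, whose 3′ UTR of 1137 bases holds 1 match to miR-92a on the minus strand at chr2:172036316-172036322 (GRCm38), capitals marking the match.
Cbln4 3′ UTR: actaaatttaGTGCAATatcttatttt

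Among 13713 tested genes with a 3′ UTR, 33.3% held a match to any of the 4 seeds and 7.64% held the miR-92a match. The 3′ UTRs of the members were short, with a median of 488.5 bases against 1172 bases for those genes, and Amh has no annotated 3′ UTR bases. A seed match is a stretch of letters, not a measured site.

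By the GRCm38 annotation all 10 members are protein-coding genes on 6 chromosomes, and 4 of them lie on chromosome 2. Amh is at chr10:80805243-80807648 on the plus strand. The chromosome 2 members are Ptgds (chr2:25466709-25470046, minus), Cst9 (chr2:148835147-148838738, plus), Defb19 (chr2:152576086-152580312, minus) and Cbln4 (chr2:172036233-172043466, minus). Mmd2 (chr5:142562358-142608800, minus) and Tesc (chr5:118027743-118061878, plus) share chromosome 5. Nt5e is at chr9:88327197-88372092 (plus), Adamts16 at chr13:70727802-70841811 (minus) and Aard at chr15:52040107-52045722 (plus). Adamts16 is the 1 member with other annotated genes inside its span, antisense Gm36607 and Gm36529, with which it shares 0 exon bases; whether the counting used strand is not given.

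Promoter sequence, from 250 bases before to 50 after the RefSeq start, was at hand for 6 members (Ptgds, Cst9, Cbln4, Tesc, Mmd2 and Nt5e). AACAAT, the core that SRY and SOX proteins bind, was searched on both strands and found in 1 of the 6, Cbln4, against 10.7% of 32851 mouse promoters. In Cbln4 it lies 242 bases before the start in reverse orientation, in capitals here, inside the promoter chr2:172043417-172043716 (minus strand).
Cbln4 promoter: tcactatgATTGTTcctgcccctga

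AGGTCA, a nuclear receptor site of the kind SF1 uses, was in 0 of the 6 and in 16.3% of all promoters. These counts describe the letters in the windows searched and no more.

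In control gonads the members set XY apart from XX at both stages. XY control libraries were higher than XX control libraries for 8 of the 9 tested members at E11.5, where 0.528% of 14217 genes were called higher, and for 10 of 10 at E12.5, where 12.4% of 14348 genes were. A gene is called here when its adjusted p in edgeR's quasi-likelihood test, with Benjamini-Hochberg adjustment over all genes tested (FDR), is under 0.05. The members had a median log2 difference of 2.98 at the earlier stage and of 5.52 at the later one, beside 0.01 and -0.01 over all genes tested. Ptgds, Cst9 and Tesc were tested at E11.5 only because XY control was high, so they add no support to the E11.5 count or median. In bulk samples fewer cells of a type and less RNA per cell cannot be told apart, and this holds for every level below.

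Corrected for exon length, Amh was the most abundant member in E12.5 testis, at 569 ± 159 CPM per kb (SD, n = 3). Aard followed with 230.4 ± 8.71 CPM per kb, then Cst9 with 202 ± 15.1, Defb19 with 185 ± 25.1 and Ptgds with 111 ± 35.9. The other members were lower, with Adamts16 at 33.0 ± 4.45 CPM per kb, Tesc at 24.9 ± 5.91, Cbln4 at 16.1 ± 3.83, Mmd2 at 10.3 ± 0.543 and Nt5e at 3.25 ± 0.662. Neighbours in this order whose libraries overlapped were Cst9 and Defb19, Adamts16 and Tesc, and Tesc and Cbln4. At E11.5 Amh and Aard also led, with means of 19.5 and 19.2 CPM per kb, and Nt5e was again the lowest with 0.166 CPM per kb. The order between them was not resolved there, since neighbouring members overlapped in all cases except Mmd2 above Nt5e.

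**Figure D1:**
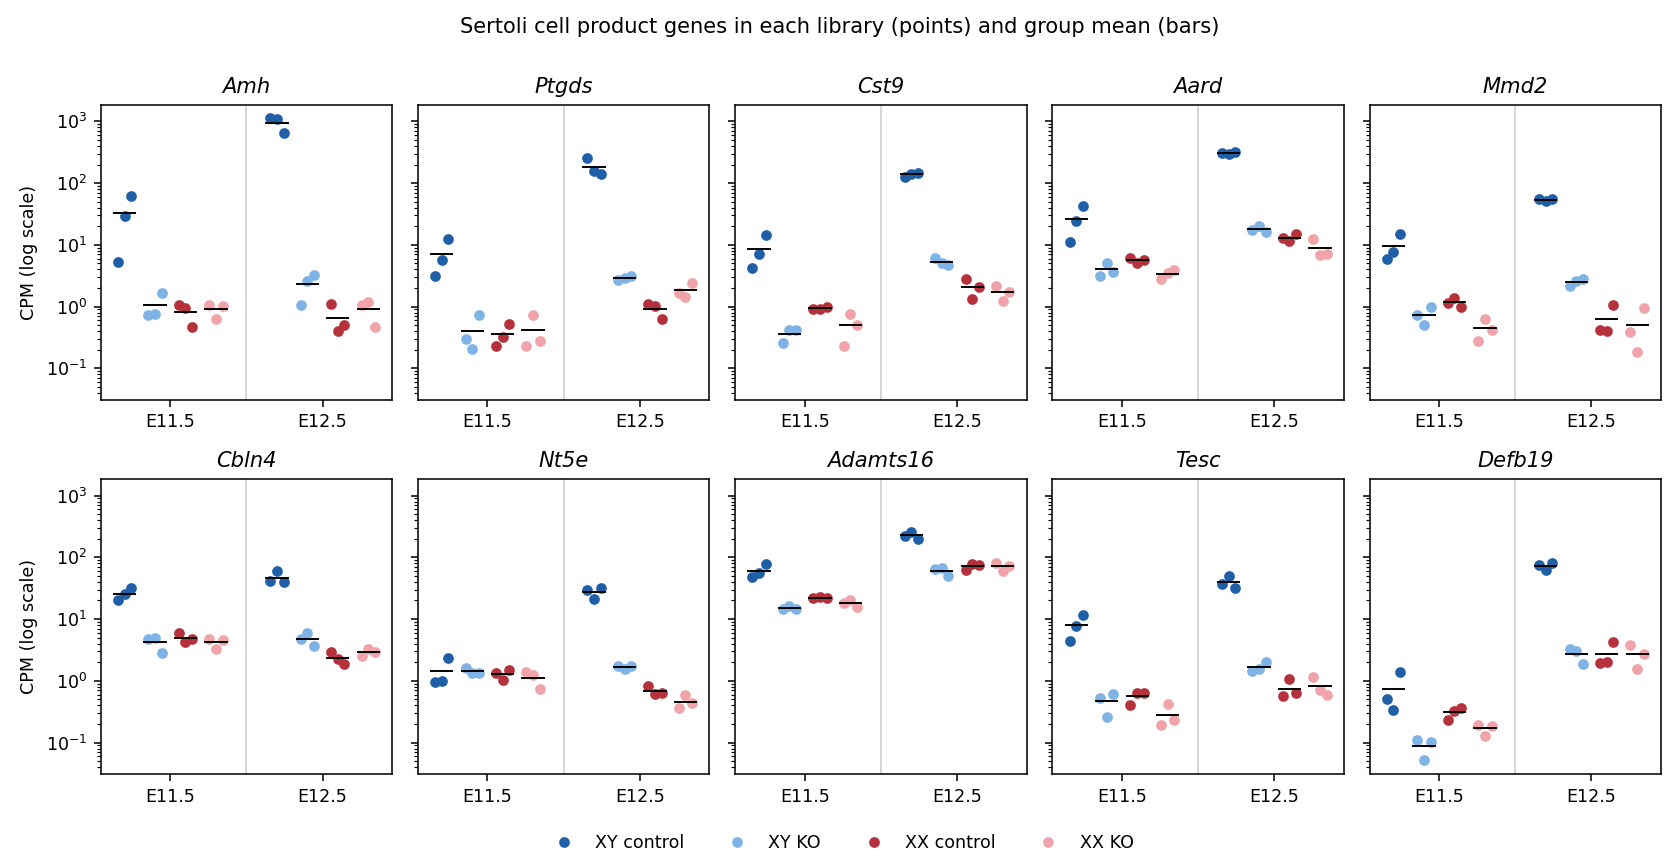
Level of each member in every library on a log axis in CPM, with the 2 stages apart and the 4 genotypes as separate colours; points are single libraries and bars are group means. XY control libraries stand above the others for 10 of 10 members at E12.5, where Amh lies between 646 and 1132 CPM in XY control and between 1.05 and 3.19 CPM in XY KO.

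XY gonads without miR-17~92 had lost most of this output. At E12.5 all 10 members fell in XY KO against XY control gonads, where 10.3% of all genes were called lower, and their median log2 difference was -4.46 beside -0.01 over all genes. At E11.5 8 of the 9 tested members fell, where 6.81% of all genes were called lower, with a median of -3.66 beside -0.03. The exception was Nt5e. Ptgds, Cst9 and Tesc, tested at E11.5 only because XY control was high, add no support to the E11.5 count or median. For each member called, the 3 XY KO libraries lay below the 3 XY control libraries, which held for 19.3% of all genes at E12.5 and for 14.5% at E11.5. The XY control libraries enter this comparison and the one with XX control, so the values of both are given side by side for each gene and are not independent of each other.

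Amh showed the deepest loss. At E12.5 it stood at 1132, 1076 and 646 CPM in XY control and at 1.05, 2.63 and 3.19 CPM in XY KO. XX control held 1.08, 0.404 and 0.5 CPM and XX KO 1.05, 1.18 and 0.472 CPM. XY control was thus far from the other genotypes, which lay within a few CPM of each other. XY control exceeded XX control by 10.46 ± 0.46 on the log2 scale (SE, adjusted p = 1.33e-09, edgeR) and XY KO fell by 8.63 ± 0.40 from XY control (adjusted p = 4.98e-09, edgeR), which left 0.253% of the control level (95% interval 0.139 to 0.459%).

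At E11.5 Amh was uneven in XY control, with 5.33, 29.8 and 62.4 CPM. XY KO had 0.741, 0.769 and 1.64 CPM, XX control 1.05, 0.964 and 0.473 CPM and XX KO 1.05, 0.638 and 1.01 CPM. All XY control libraries were above all others. Amh fell by 4.97 ± 0.82 on the log2 scale (adjusted p = 0.00528, edgeR), which left 3.19% (0.895 to 11.4%). XY control exceeded XX control by 5.26 ± 0.84 (adjusted p = 0.0182, edgeR). Both calls rest on the spread shared over the 4 genotypes: with only the libraries compared in the fit, the adjusted p was 0.0631 for XY KO and 0.202 for XX control. The call against XX control was also lost without any 1 of the XX control libraries (adjusted p = 0.0957 to 0.122), and the difference was 4.39 without XY control replicate 3.

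Ptgds encodes prostaglandin D synthase, an enzyme whose product acts on Sertoli precursors. In E12.5 libraries it was at 251, 157 and 141 CPM in XY control and at 2.69, 2.9 and 3.14 CPM in XY KO. XX control had 1.08, 1.01 and 0.625 CPM and XX KO 1.68, 1.4 and 2.43 CPM, so XY KO was above both XX genotypes without overlap. It fell by 5.96 ± 0.27 on the log2 scale in XY KO (adjusted p = 3.55e-09, edgeR), which left 1.61% (1.08 to 2.38%), while XY control exceeded XX control by 7.63 ± 0.30 (adjusted p = 4.98e-10). At E11.5 XY control held 3.17, 5.69 and 12.7 CPM and XY KO 0.296, 0.205 and 0.718 CPM, against 0.232 to 0.526 CPM in XX control and 0.234 to 0.723 CPM in XX KO. XY KO there overlapped both XX genotypes. XY KO fell by 4.15 ± 0.57 (adjusted p = 0.000726, edgeR), which left 5.63% (2.4 to 13.2%). The share was 9.11% without XY control replicate 3 and 3.66% without XY KO replicate 3.

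Cst9, a secreted relative of the cystatin protease inhibitors, was even across the E12.5 XY control libraries, with 127, 143 and 146 CPM. XY KO retained 6.08, 5.13 and 4.64 CPM, above the 2.78, 1.31 and 2.06 CPM of XX control and the 2.17, 1.22 and 1.74 CPM of XX KO. In XY KO it fell by 4.72 ± 0.23 on the log2 scale (adjusted p = 5.83e-09, edgeR), which left 3.78% (2.69 to 5.31%). Its excess in XY control over XX control was 6.08 ± 0.25 (adjusted p = 7.07e-10). At E11.5 XY control had 4.18, 7.14 and 14.3 CPM, XY KO 0.259, 0.41 and 0.41 CPM, XX control 0.93, 0.906 and 0.999 CPM and XX KO 0.234, 0.765 and 0.507 CPM. XY KO was then below XX control in every library. It fell by 4.58 ± 0.48 (adjusted p = 5.95e-05, edgeR), which left 4.19% (2.06 to 8.52%), or 6.33% without XY control replicate 3.

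Defb19, a beta-defensin, had few counts at E11.5. E12.5 XY control libraries held 76.3, 61.9 and 80.8 CPM and XY KO 3.27, 3.04 and 1.86 CPM. XX control was at 1.96, 2.02 and 4.19 CPM and XX KO at 3.78, 1.54 and 2.69 CPM, so XY KO lay within the XX range. Defb19 fell by 4.79 ± 0.35 on the log2 scale (adjusted p = 2.82e-07, edgeR), which left 3.62% (2.16 to 6.07%), and XY control exceeded XX control by 4.76 ± 0.35 (adjusted p = 1.83e-07). At E11.5 Defb19 did not pass the filter on low values, with 11, 9 and 29 counts in XY control, 3, 1 and 2 in XY KO, 4, 11 and 7 in XX control and 5, 3 and 4 in XX KO. At this depth no fold is given. Without the filter it passed the test between XY KO and XY control (adjusted p = 0.00814, edgeR).

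Cbln4, a secreted cerebellin, was already well above XX control in XY control at E11.5. XY control libraries held 20.7, 25.1 and 31.8 CPM, XY KO 4.74, 4.97 and 2.87 CPM, XX control 5.98, 4.32 and 4.68 CPM and XX KO 4.76, 3.27 and 4.52 CPM. Its XY control libraries were the most even of the members at this stage, and the other genotypes overlapped. XY control exceeded XX control by 2.38 ± 0.23 on the log2 scale (adjusted p = 3.16e-05, edgeR), and XY KO fell by 2.62 ± 0.23 (adjusted p = 1.48e-05), which left 16.3% (11.6 to 22.9%). At E12.5 Cbln4 had 40.7, 59.7 and 40.1 CPM in XY control, 4.73, 6.01 and 3.63 CPM in XY KO, 2.89, 2.27 and 1.88 CPM in XX control and 2.5, 3.33 and 2.91 CPM in XX KO. XY KO was above both XX genotypes without overlap. Here Cbln4 fell by 3.31 ± 0.23 (adjusted p = 2.24e-07, edgeR), which left 10.1% (7.1 to 14.3%).

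Adamts16, a secreted metalloprotease, was the member with the smallest called fall at both stages. At E11.5 its libraries held 47.2, 55 and 79.2 CPM in XY control and 14.4, 16.2 and 14.6 CPM in XY KO. XX control had 21.6, 22.5 and 22.2 CPM and XX KO 18.5, 20.2 and 15.7 CPM, so that XY KO was below XX control in every library. It fell by 2.01 ± 0.16 on the log2 scale (adjusted p = 5.13e-06, edgeR), which left 24.9% (19.6 to 31.6%). At E12.5 the values were 225, 257 and 196 CPM in XY control, 64.4, 65.9 and 49.6 CPM in XY KO, 61.2, 78.3 and 75.5 CPM in XX control and 82.2, 61.1 and 73.5 CPM in XX KO. XY KO overlapped both XX genotypes. Adamts16 fell by 1.92 ± 0.16 (adjusted p = 8.85e-07, edgeR), which left 26.5% (20.9 to 33.6%). XX control held 71.7 ± 9.16 CPM (SD, n = 3), and XY control exceeded it by 1.66 ± 0.16 (adjusted p = 2.45e-06), the smallest such difference among the members at E12.5.

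Nt5e encodes an ecto-nucleotidase at the cell surface that makes adenosine from AMP, and it was the tested member with no call at E11.5. At that stage it was near 1 CPM in every genotype, with 0.965, 1 and 2.32 CPM in XY control, 1.63, 1.33 and 1.33 CPM in XY KO, 1.34, 1.02 and 1.47 CPM in XX control and 1.37, 1.23 and 0.738 CPM in XX KO. The libraries of all genotypes overlapped. XY KO differed from XY control by 0.02 ± 0.36 on the log2 scale (adjusted p = 0.98, edgeR), a level of 101% with an interval of 59.8 to 172%, and XY control from XX control by 0.17 ± 0.36 (adjusted p = 0.826). At E12.5 it stood at 30, 21.5 and 32.2 CPM in XY control and at 1.75, 1.55 and 1.72 CPM in XY KO, with 0.825, 0.606 and 0.625 CPM in XX control and 0.362, 0.589 and 0.436 CPM in XX KO. XY KO was above both XX genotypes and XX KO below XX control, without overlap in any of these cases. XY KO fell by 4.05 ± 0.23 from XY control (adjusted p = 2.85e-08, edgeR), which left 6.05% (4.29 to 8.54%), and XY control exceeded XX control by 5.33 ± 0.26 (adjusted p = 3.04e-09).

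Mmd2 encodes a membrane protein of the progestin and adipoQ receptor family. Its E12.5 libraries were even in XY control, at 54.5, 50.4 and 55.8 CPM, and held 2.16, 2.63 and 2.76 CPM in XY KO. XX control had 0.412, 0.404 and 1.06 CPM and XX KO 0.394, 0.181 and 0.944 CPM, all below XY KO. Mmd2 fell by 4.40 ± 0.34 on the log2 scale (adjusted p = 5.25e-07, edgeR), which left 4.75% (2.85 to 7.9%), and the excess of XY control over XX control was 6.45 ± 0.41 (adjusted p = 5.06e-08). At E11.5 XY control had 5.83, 7.74 and 14.8 CPM, XY KO 0.741, 0.513 and 0.974 CPM, XX control 1.16, 1.37 and 0.999 CPM and XX KO 0.273, 0.638 and 0.415 CPM. XY KO was below XX control in every library and overlapped XX KO. From XY control it fell by 3.66 ± 0.37 (adjusted p = 3.87e-05, edgeR), which left 7.93% (4.57 to 13.8%).

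Tesc encodes tescalcin, a calcium-binding protein inside the cell. It was at 37, 50 and 31.7 CPM in E12.5 XY control, at 1.46, 1.55 and 2.02 CPM in XY KO, at 0.567, 1.06 and 0.625 CPM in XX control and at 1.15, 0.702 and 0.581 CPM in XX KO. XY KO lay above both XX genotypes without overlap. It fell by 4.53 ± 0.28 on the log2 scale (adjusted p = 5.83e-08, edgeR), which left 4.34% (2.86 to 6.58%), and XY control exceeded XX control by 5.70 ± 0.31 (adjusted p = 1.13e-08). At E11.5 the libraries held 4.36, 7.66 and 11.7 CPM in XY control, 0.519, 0.256 and 0.615 CPM in XY KO, 0.407, 0.643 and 0.631 CPM in XX control and 0.195, 0.425 and 0.231 CPM in XX KO. The last 3 genotypes overlapped. Tesc fell by 4.07 ± 0.41 (adjusted p = 3.49e-05, edgeR), which left 5.97% (3.28 to 10.9%).

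Aard, named for its alanine- and arginine-rich domain, was the second most abundant member per kb in XY control and the first in E12.5 XY KO. At E12.5 it was very even in XY control, with 309, 299.5 and 323 CPM, and had 17.6, 20.4 and 16.4 CPM in XY KO. XX control held 12.8, 11.6 and 14.9 CPM and XX KO 12.3, 6.91 and 7.19 CPM, so that XY KO was above both. XY KO fell by 4.10 ± 0.20 on the log2 scale (adjusted p = 6.68e-09, edgeR), which left 5.82% (4.31 to 7.86%). XY control exceeded XX control by 4.57 ± 0.21 (adjusted p = 1.68e-09). At E11.5 it had 11.1, 24.2 and 42.2 CPM in XY control, 3.11, 5.18 and 3.69 CPM in XY KO, 6.22, 5.11 and 5.68 CPM in XX control and 2.77, 3.53 and 3.87 CPM in XX KO. Aard fell by 2.70 ± 0.39 (adjusted p = 0.00124, edgeR), which left 15.4% (8.61 to 27.5%). Its E11.5 excess over XX control, 2.19 ± 0.37 (adjusted p = 0.014), was lost with only the libraries compared in the fit (adjusted p = 0.0701) and without any 1 of the XX control libraries (0.0576 to 0.0887).

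**Figure D2:**
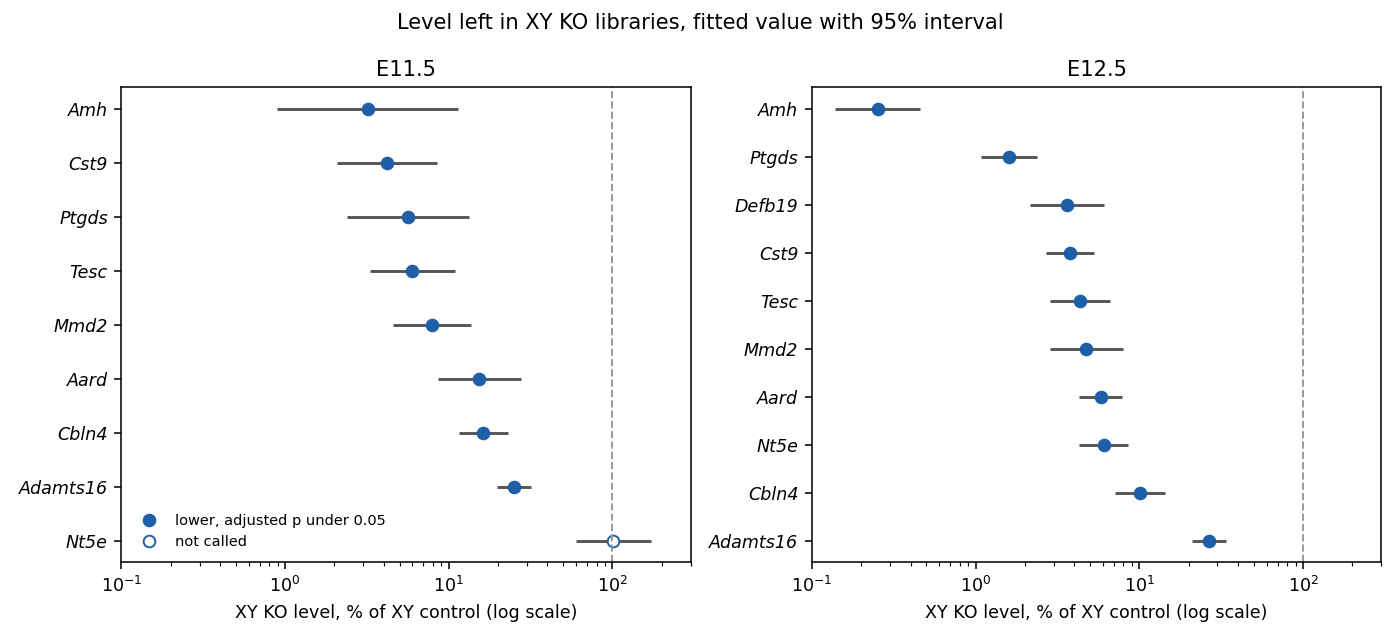
Level left in XY KO as a percent of XY control for each member at each stage, on a log axis, with the 95% interval of the edgeR fold change as a bar and a line at 100%. Amh at E12.5 is farthest from the line at 0.253% and Nt5e at E11.5 lies on it at 101%.

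The 5 remaining E11.5 excesses of XY control over XX control, all called, were 4.30 ± 0.58 on the log2 scale for Ptgds (adjusted p = 0.00135, edgeR), 3.17 ± 0.42 for Cst9 (0.000888), 2.98 ± 0.35 for Mmd2 (0.000271), 3.78 ± 0.39 for Tesc (8.36e-05) and 1.45 ± 0.16 for Adamts16 (0.000121). Without XY control replicate 3 those of Ptgds and Cst9 were 3.62 and 2.58. At E12.5 the excess of Cbln4 was 4.31 ± 0.25 (2.04e-08). On a linear scale testis exceeded ovary at E12.5 by 1411-fold for Amh, 198-fold for Ptgds and 87.7-fold for Mmd2, down to 3.15-fold for Adamts16. The folds of Amh and Mmd2 rest on few XX control counts, 8 to 21 and 8 to 17 per library. With 1 library left out their log2 differences ran from 10.18 to 11.04 and from 6.22 to 7.02.

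At E12.5 the order of the members by level per kb was another outside XY control, in XY KO as in both XX genotypes. In E12.5 XY KO gonads Amh stood at 1.37 CPM per kb and was seventh of the 10 members. Aard led with 13.4 CPM per kb, followed by Adamts16 with 8.78, Cst9 with 7.69 and Defb19 with 6.91. Ptgds, Cbln4, Tesc, Mmd2 and Nt5e were at 1.76, 1.65, 1.05, 0.485 and 0.195 CPM per kb. The libraries of Amh overlapped those of its neighbours Cbln4 and Tesc, while Aard lay above Adamts16 without overlap. In E12.5 XX gonads Amh was likewise low, with rank 8 in XX control (0.397 CPM per kb) and rank 7 in XX KO (0.539). Aard, Adamts16, Defb19 and Cst9 held ranks 1 to 4 in both. Summed over the 10 members, E12.5 XY KO libraries held 105, 112 and 89.0 CPM, overlapping XX control (85.6 to 102 CPM) and XX KO (78.2 to 108 CPM), whereas XY control held 2282, 2175 and 1693 CPM. Outside XY control the largest part of these sums was Adamts16, with 49.6 to 65.9 CPM in XY KO and 61.2 to 78.3 CPM in XX control. At E11.5 the sums were 26.5 to 29.9 CPM in XY KO, 37.5 to 39.2 CPM in XX control, 27.4 to 31.5 CPM in XX KO and 103 to 273 CPM in XY control.

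What was left in XY mutants was then set against the ovary. At E12.5 XY KO was called higher than XX control for 6 of the 10 members, where 3.42% of all genes were called higher, with a member median of 1.23 on the log2 scale beside -0.02 over all genes. The excess was 2.06 ± 0.43 for Mmd2 (adjusted p = 0.0166, edgeR), 1.67 ± 0.32 for Ptgds (0.0109), 1.35 ± 0.25 for Cst9 (0.00826), 1.28 ± 0.27 for Nt5e (0.0172) and 1.00 ± 0.25 for Cbln4 (0.0345). Amh passed with 1.83 ± 0.49 (adjusted p = 0.0464), although its libraries overlapped those of XX control by the library at 1.05 CPM and the call was lost in 13 of 18 alternatives. Tesc (1.17 ± 0.33, 0.0576), Aard (0.46 ± 0.19, 0.19), Adamts16 (-0.26 ± 0.16, 0.389) and Defb19 (-0.02 ± 0.36, 0.979) did not pass. These excesses are 2.00- to 4.16-fold and rest on levels of a few CPM. Of the same 18 alternatives the call was lost in 6 for Cbln4 (adjusted p = 0.0502 to 0.133, edgeR), 4 for Mmd2 (0.052 to 0.0903), 2 for Nt5e (0.0582 and 0.0869), 1 for Ptgds (0.0507) and 0 for Cst9. The count went to 1 without XX control replicate 2 and to 3 without XX control replicate 1, XY KO replicate 2 or XY KO replicate 3.

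XX KO gonads share the deletion with XY KO. At E12.5 XY KO was called higher than XX KO for 4 members, in a comparison in which 20 genes, 0.139% of those tested, were called higher. They were Mmd2 with 2.42 ± 0.41 on the log2 scale (adjusted p = 0.0268, edgeR), Nt5e with 1.82 ± 0.26 (0.00666), Cst9 with 1.63 ± 0.24 (0.00677) and Aard with 1.04 ± 0.19 (0.0495), or 5.34-, 3.54-, 3.11- and 2.06-fold. The call was lost in 13 of 18 alternatives for Aard (adjusted p = 0.0657 to 0.319, edgeR), among them library size as the scaling and the replicate block, in 7 for Mmd2 (0.0581 to 0.304), 2 for Nt5e (0.053 and 0.192) and 1 for Cst9 (0.192). Without XX KO replicate 3 the excess of Mmd2 was 9.11-fold. Amh (1.36 ± 0.41), Tesc (1.08 ± 0.30), Ptgds (0.70 ± 0.27) and Cbln4 (0.69 ± 0.23) did not pass (adjusted p = 0.235 for each, edgeR), nor did Adamts16 (-0.27 ± 0.16, 0.324) and Defb19 (0.00 ± 0.35, 0.999). Libraries of XY KO lay above those of XX KO without overlap for 7 of the 10 members, against 9.75% of all genes. With only the 6 libraries compared in the fit 0 members were called, and 2 were called without XX KO replicate 1, XY KO replicate 2 or 3, or any 1 of the XY control libraries.

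Earlier, at E11.5, no member was called higher in XY KO than in XX control or XX KO gonads. Some had few counts, such as 5 to 14 per XY KO library for Tesc, so small excesses could be missed. Against XX KO the 9 tested members gave 0 calls in edgeR, 0 at an unadjusted p under 0.05 and 0 in DESeq2, which gave no adjusted p for 5 of them, where 0.0844% of all genes were called, and all 9 overlapped. Against XX control 1 member, Adamts16, was called and it was lower in XY KO, by -0.56 ± 0.16 on the log2 scale (adjusted p = 0.0439, edgeR), where 5.28% of all genes were called lower. That call was lost in 9 of 18 alternatives. Among them were library size as the scaling (adjusted p = 0.0516, edgeR) and the replicate block. The others included each fit without 1 of the XX control or XY KO libraries (adjusted p = 0.0829 to 0.120, edgeR). Cst9 was lower by -1.41 ± 0.54 without overlap but did not pass (adjusted p = 0.115, edgeR). The other 7 differed by -0.68 to 0.29. Libraries lay below XX control without overlap for 3 of the 9, beside 18.5% of all genes.

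**Figure D3:**
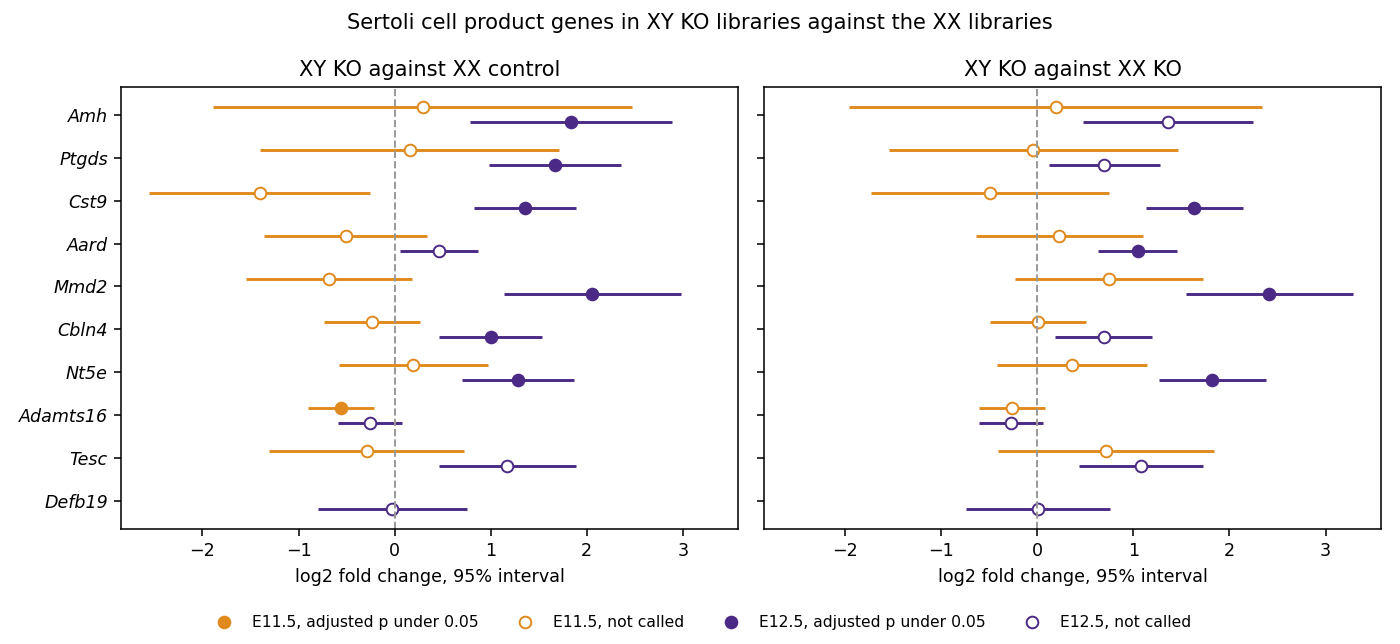
Log2 difference of XY KO from XX control and from XX KO for each member at each stage, with bars for the 95% interval and filled points where the adjusted p is under 0.05. At E12.5 Mmd2 is highest in both comparisons, at 2.06 and 2.42, while Adamts16 and Defb19 lie near 0.

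In XX gonads the deletion moved no member past the test. At E11.5 XX KO against XX control gave 0 calls in edgeR, 1 at an unadjusted p under 0.05 (Mmd2, -1.43 ± 0.43, adjusted p = 0.0917) and 1 in DESeq2, where 3.27% of all genes were called in edgeR. XX KO libraries lay below XX control for 4 of the 9, namely Mmd2, Cst9, Aard and Adamts16, beside 11.9% of all genes. At E12.5 it gave 0 calls in edgeR and 2 both at an unadjusted p under 0.05 and in DESeq2, beside 5.26% of all genes called in edgeR. The pair was Ptgds, which was higher in XX KO by 0.97 ± 0.33 (adjusted p = 0.0966), and Aard, which was lower by -0.58 ± 0.19 (adjusted p = 0.091). The member medians were -0.29 and -0.01 on the log2 scale, both beside -0.00 over all genes.

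The difference between the deletion's effect in XY and in XX gonads was tested as an interaction. At E12.5 it was called for all 10 members, with values from -9.10 ± 0.63 for Amh (adjusted p = 7.14e-07, edgeR) to -1.93 ± 0.22 for Adamts16 (3.96e-05), where 7.05% of all genes were called in this direction. XX control means there ran from 0.626 CPM for Mmd2 to 2.72 CPM for Defb19, apart from Aard (13.1) and Adamts16 (71.7). For members at those low levels a fall of the XY size could hardly be seen in XX gonads. The interaction also holds the difference between XY control and XX control, and by itself does not show a sex-specific action of the deletion. At E11.5 it was called for Cbln4 (-2.37 ± 0.33, adjusted p = 0.01) and Adamts16 (-1.72 ± 0.23, 0.00928), which were 2 of only 4 genes, 0.0281% of those tested, in that direction. The call of Cbln4 was lost without XX control replicate 2 (adjusted p = 0.0641, edgeR), XX KO replicate 3 (0.0553) or XY control replicate 3 (0.0517). DESeq2 called Adamts16 and gave no adjusted p for the other 8. The difference for Amh, -5.07 ± 1.28, was larger in size but did not pass (adjusted p = 0.215, edgeR).

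Among the 8 groups, the E11.5 XY control libraries had the largest median spread over the members. Replicate 3 was highest for 10 of 10 members and replicate 1 lowest for 9 of 10. The ratio of highest to lowest library ran from 1.54 for Cbln4 to 11.7 for Amh, and the median coefficient of variation was 57.3%, against 14.4 to 31.7% in the other groups. Other Sertoli genes in the same libraries, in the order of replicates 1, 2 and 3, were at 6.06, 17.7 and 31.3 CPM for Dhh, 11, 13.8 and 17 CPM for Fgf9, 55, 76.3 and 65.5 CPM for Sox9 and 3.77, 4.65 and 4.7 CPM for Sry. Summed mesonephric markers were 190, 279.7 and 164 CPM and summed germ cell markers 57.4, 88.8 and 111 CPM. Fgf9 and the 2 sums were named after their values were seen, and the part of these cell types in the spread of the members was not tested. Without replicate 3 the share of Amh left in XY KO was 5.9%, and without replicate 1 it was 2.26%.

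**Figure D4:**
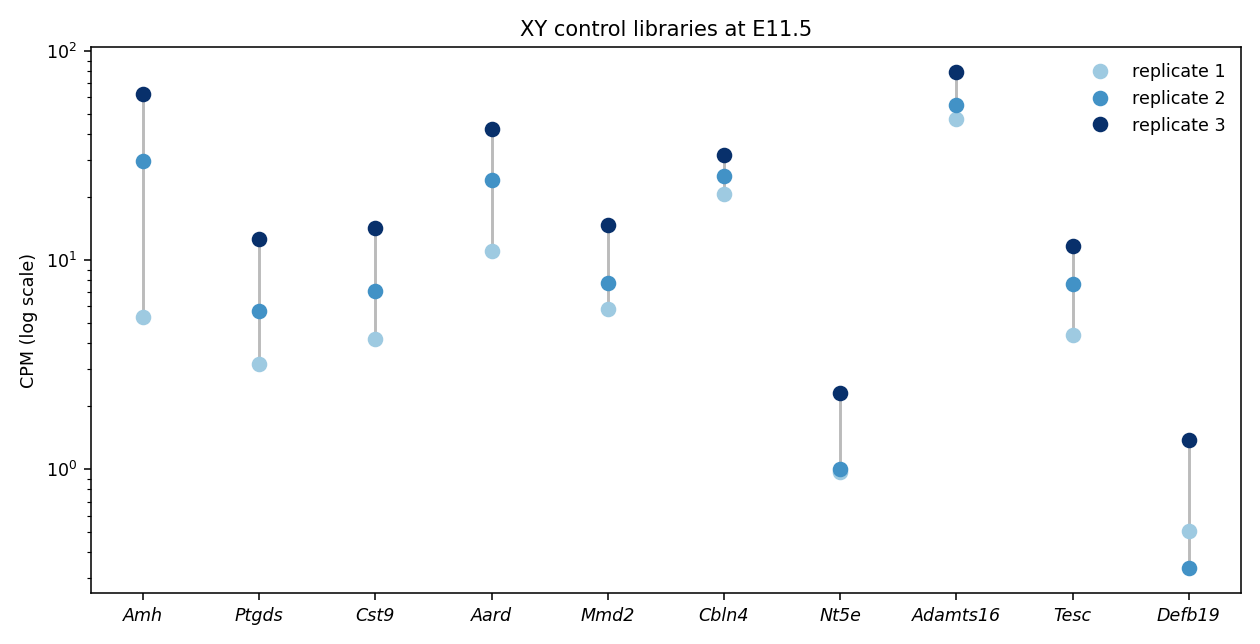
Level of each member in the 3 XY control libraries at E11.5, on a log axis in CPM, with a grey line from the lowest to the highest library. Replicate 3 is the highest for 10 of 10 members and Amh spans 5.33 to 62.4 CPM.

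Sertoli transcription factors and signals had smaller median differences than the members and did not all move in 1 direction. Of 16 transcription factors and signals, 10 were lower and 0 higher in XY KO than XY control at E11.5, and 10 lower and 4 higher at E12.5, with medians of -0.84 and -0.90 on the log2 scale beside -0.03 and -0.01 over all genes. At E11.5 the largest falls were in Dhh, the Sertoli hedgehog ligand (18.4 to 1.41 CPM, -3.70 ± 0.57, adjusted p = 0.00247, edgeR), Sry (4.37 to 1.10 CPM, -1.99 ± 0.37, 0.0046), Inhbb, a subunit of activin and inhibin (88.3 to 32.9 CPM, -1.42 ± 0.17, 0.000192) and Sox9 (65.6 to 27.6 CPM, -1.25 ± 0.18, 0.000761). At E12.5 they were in Dhh (171 to 3.50 CPM, -5.62 ± 0.25, 3.41e-09), Gdnf, a growth factor for germline stem cells (51.4 to 1.54 CPM, -5.10 ± 0.27, 1.35e-08), Sox10 (26.5 to 1.00 CPM, -4.69 ± 0.44, 2.74e-06) and Sox8 (39.6 to 1.76 CPM, -4.46 ± 0.24, 1.6e-08).

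The 4 that were higher at E12.5 were Sry, Wt1, Fgfr2 and Kitl. Sry was at 0, 0.217 and 0.348 CPM in XY control and at 2.22, 3.17 and 2.57 CPM in XY KO, without overlap (3.99 ± 0.64 on the log2 scale, adjusted p = 0.00126, edgeR). Wt1 went from 306 to 556 CPM (0.86), Fgfr2 from 103 to 246 CPM (1.25) and Kitl from 348 to 809 CPM (1.22). Sox9, the factor that acts next after Sry, went from 130.02 to 16.4 CPM (-2.98 ± 0.30, adjusted p = 5.72e-06, edgeR). These 5 genes were named after their values were seen.

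Most other genes that Sertoli cells express fell at E12.5. Of 16 further effector genes, 15 fell and 1 rose (Trf, transferrin) at E12.5, with a median of -2.74 on the log2 scale, and of 13 tested at E11.5 6 fell and 1 rose (Cldn11, a tight junction claudin), with a median of -0.47. Hsd17b3, which makes testosterone from androstenedione, went from 56.0 to 0.357 CPM at E12.5 (-7.12 ± 0.35, adjusted p = 6.68e-09, edgeR) and from 3.48 to 0.233 CPM at E11.5 (-3.89 ± 0.37, 2.52e-05). Col9a3, a collagen chain, went from 435 to 8.69 CPM (-5.65 ± 0.29, 1.03e-08) and Etd from 6.98 to 0.136 CPM (-5.68 ± 0.57, 1.33e-05) at E12.5. Fshr, the receptor of follicle-stimulating hormone, had 1.44, 0.564 and 2.00 CPM in E12.5 XY control and 0 counts in XY KO. At E11.5 Rhox8 (-3.62 ± 0.44, 0.000165), Mro (-2.46 ± 0.30, 0.000161) and Col9a3 (-1.61 ± 0.42, 0.0307) also fell.

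Genes that receive and relay AMH were examined next. Of 12 AMH receptor and SMAD genes, 0 were called lower at either stage, 2 rose at E11.5 and 3 at E12.5, with medians of 0.09 and 0.01 on the log2 scale. Called lower were 6.81% of all genes at E11.5 and 10.3% at the later stage, and called higher 5.88% and 10.3%. Those that rose at E12.5 were the type I receptor Bmpr1b (4.27 to 12.1 CPM, 1.53 ± 0.26, adjusted p = 0.000668, edgeR), the signal transducer Smad5 (372 to 684 CPM, 0.88 ± 0.12, 0.000129) and the target gene Id2 (90.6 to 126 CPM, 0.47 ± 0.14, 0.0275). At E11.5 they were the type I receptor Bmpr1a (0.45 ± 0.09, 0.00459) and Id2 (0.30 ± 0.08, 0.0249). Amhr2, the AMH type II receptor and named here after its values were seen, was at 149, 128 and 96.4 CPM in E12.5 XY control and at 152, 177 and 185 CPM in XY KO, and its difference of 0.46 did not pass the test.

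Genes of the pathways of Ptgds and Nt5e were called in both directions. Of the prostaglandin genes, 11 were tested at E11.5, where Ptges3 (0.27 ± 0.08, adjusted p = 0.0337, edgeR) and Hpgd (0.41 ± 0.12, 0.0403) rose and Hpgds (-0.76 ± 0.18, 0.0133), the other prostaglandin D synthase, fell. At E12.5 10 were tested and 0 were called in edgeR, with 2 at an unadjusted p under 0.05 and 1 in DESeq2. The list medians were 0.01 and 0.02 on the log2 scale. Of 9 tested genes of the extracellular nucleotide and adenosine pathway, 1 rose and 1 fell at E11.5 and 2 rose and 3 fell at E12.5, with medians of -0.22 and -0.32. Slc29a1, a nucleoside transporter, fell at both stages (-0.47 ± 0.12, 0.0218, and -1.13 ± 0.13, 1.37e-05). At E12.5 the adenosine receptors Adora2b (-1.25 ± 0.40, 0.0396) and Adora1 (-0.92 ± 0.18, 0.00158) fell, and the ectonucleotidase Entpd2 rose (0.76 ± 0.24, 0.0376). Adk, adenosine kinase, rose at E11.5 (0.42 ± 0.09, 0.0068).

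Relatives of the members by gene family did not share their pattern as a group. Of 10 tested at E11.5 2 rose and 2 fell, and of 11 tested at E12.5 1 rose and 4 fell, with medians of -0.22 and -0.27 on the log2 scale. Cbln1, a cerebellin like Cbln4, fell from 239 to 11.53 CPM at E12.5 (-4.38 ± 0.21, adjusted p = 4.98e-09, edgeR), and Chp2, a calcium-binding relative of Tesc, from 32.7 to 6.58 CPM (-2.32 ± 0.18, 5.77e-07). Cst8 fell from 53.9 to 25.3 CPM (-1.09 ± 0.26, 0.00716). Cst12, a cystatin like Cst9, moved the other way, from 0.796 CPM in XY control to 17.02 CPM in XY KO (4.44 ± 0.54, 3.33e-05), with means of 4.15 CPM in XX control and 21.3 CPM in XX KO. At E11.5 Cst8 (-2.05 ± 0.37, 0.00348) and Chp2 (-1.31 ± 0.36, 0.0288) fell and Mmd (0.39 ± 0.08, 0.00507), the paralogue of Mmd2, rose.

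**Figure D5:**
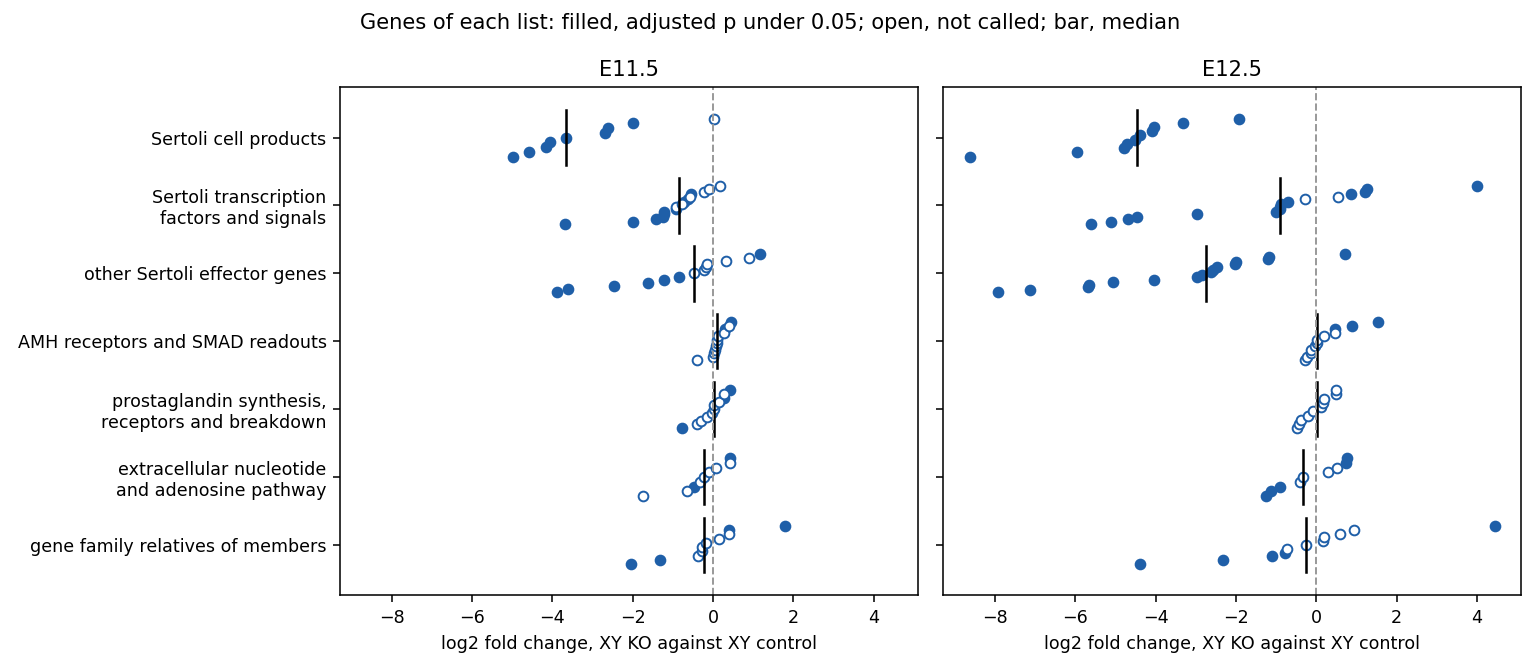
Log2 difference of XY KO from XY control for each tested gene of the members and the 6 other lists, with the 2 stages apart; points are genes, filled where called, and a bar marks the median of each list. At E12.5 the members have a median of -4.46 and the other Sertoli effector genes -2.74, while the AMH receptor and SMAD genes have 0.01.

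The genes whose pattern was most like that of the members were sought by Pearson's r over the 12 libraries of a stage, between a gene's log2 level and the mean of the members' log2 levels, each centred and scaled to its own spread. Candidates had a mean of at least 1 CPM. At E12.5, among 13642 candidates, they were Ptk2b (r = 0.995), Efhd1 (0.991), Col9a3 (0.990), Dhh (0.990), Thbd (0.989), Cbln1 (0.989), Ankrd63 (0.988) and Tacr3 (0.988). At E11.5, among 13664, they were Zan (0.971), Rasl12 (0.964), Ptk2b (0.963), Gstm6 (0.959), Gldn (0.958), Lefty2 (0.957), Tmem200b (0.952) and Dtna (0.951). Ptk2b, a focal adhesion kinase, is on both lists. Each member followed the mean of the others with r of 0.924 to 0.990 at E12.5 and of 0.923 to 0.967 at E11.5, except Nt5e at E11.5 with 0.223. All these values share the step from XY control to the other genotypes and the same libraries, and they are given as descriptions.

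Markers of other cell types moved in the same libraries. At E12.5 pre-granulosa markers were higher in XY KO than XY control for 6 of 6, with summed levels of 546 to 586 CPM in XY KO, 78.3 to 105 CPM in XY control and 668 to 919 CPM in XX control. Foxl2, the defining ovarian factor and named after its values were seen, was at 0.609, 1.65 and 0.782 CPM in XY control and at 19.8, 35.4 and 40.3 CPM in XY KO. Fetal Leydig cell markers fell for 6 of 6, with sums of 1177 to 2132 CPM in XY control and 232 to 275 CPM in XY KO beside 282 to 303 CPM in XX control. This list includes Nr5a1, which is also in the list of Sertoli transcription factors and signals. Germ cell markers fell for 2 of 6 (811 to 1101 against 613 to 769 CPM), endothelial markers rose for 2 of 6, and edgeR called 0 of 6 macrophage and 0 of 4 tested erythroid markers, with 1 in each list at an unadjusted p under 0.05. Over all genes 10.3% were called lower and 10.3% higher.

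Markers of mesonephric tubules and duct were higher in E12.5 XY KO than XY control for 5 of 6. Their sums were 15.0, 9.76 and 12.9 CPM in XY control and 30.6, 60.3 and 92.6 CPM in XY KO, with 32.8 to 36.2 CPM in XX control and 56.2 to 142 CPM in XX KO. Cdh16, an epithelial cadherin of these tubules and also named after its values were seen, was at 0.435, 0.13 and 0 CPM in XY control and at 4.5, 24.3 and 49.1 CPM in XY KO. At E11.5, where the mesonephros was part of the sample, 1 of 6 mesonephric markers fell. There 2 of 6 pre-granulosa markers rose and 1 fell, 2 of 4 tested Leydig and 2 of 6 macrophage markers fell, and edgeR called 0 germ cell, endothelial or erythroid markers, with 1, 1 and 2 at an unadjusted p under 0.05. Over all genes 6.81% were called lower and 5.88% higher at E11.5. The part of these cell types in the levels of the members was not tested.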

How the data were processed

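Bulk RNA-seq of 24 libraries was used. The authors aligned reads to mm10 with Subread and counted them per gene with featureCounts, and the deposited values are raw counts, not normalized. The annotation, strand setting and treatment of multi-mapping reads are not given in the sources used here. Deposited tables of another mutant hold 12 per-sample columns that were not used, and the single-cell data were not analysed here. Groups follow the labels. Replicates of a group differed by more than sampling noise.

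Each stage was fitted on its own in R 4.3.3 with edgeR 4.0.16 and limma 3.58.1: genes with at least 1 CPM in at least 2 of 12 libraries, TMM normalization, 1 mean per genotype, edgeR's legacy quasi-likelihood fit with the robust option, and an FDR under 0.05 over all genes tested (14217 and 14348). Levels are CPM on TMM library sizes. Intervals of a percent left come from the fold change and its SE. In data simulated for XY KO against XY control, with 200 genes changed 2-fold, edgeR recovered 81% at E11.5 and 68.5% at the later stage.

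The members, the gene lists and the tests were chosen with earlier results of these data known. Named are all members, up to 4 called genes per list with the largest change between XY KO and XY control and a mean of at least 1 CPM in XY or XX control, and the 8 genes per stage most like the members over the 12 libraries. Alternatives were other scalings, no filter, DESeq2 1.42.0, a replicate block, only the libraries compared, and each library left out in turn.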

Additional observations from a re-analysis of the deposited data

Results flagged for a closer look

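The results below were picked out because the interaction of sex and deletion (log2 effect in XY minus log2 effect in XX, edgeR) passed an adjusted p under 0.05. At E12.5 these were all 10 members: Amh -9.10 (SE 0.63, adjusted p = 7.14e-07), Ptgds -6.93 (SE 0.40, 1.33e-07), Defb19 -4.76 (SE 0.48, 1.37e-05), Tesc -4.62 (SE 0.43, 7.17e-06), Cst9 -4.44 (SE 0.34, 1.32e-06), Mmd2 -4.04 (SE 0.60, 0.000383), Cbln4 -3.62 (SE 0.34, 6.71e-06), Aard -3.52 (SE 0.27, 1.4e-06), Nt5e -3.51 (SE 0.37, 1.97e-05) and Adamts16 -1.93 (SE 0.22, 3.96e-05). In each case the effect in XY gonads was a called fall, while the effect in XX gonads was not called and lay between -0.58 and 0.97. All members but Aard and Adamts16 were low in E12.5 XX control (means of 0.626 to 2.72 CPM), where a like fall could hardly be seen. Without XX KO replicate 3 the value of Mmd2 was -3.27.

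At E11.5 the members were Cbln4 with -2.37 (SE 0.33, adjusted p = 0.01) and Adamts16 with -1.72 (SE 0.23, adjusted p = 0.00928). The call of Cbln4 was lost without XX control replicate 2, XX KO replicate 3 or XY control replicate 3 (adjusted p = 0.0517 to 0.0641), and that of Adamts16 in no alternative. Of the other 7, 6 had an unadjusted p under 0.05 and did not pass the adjustment. Without XY control replicate 1, the library with the lowest level of most members, 7 members passed, without replicate 2 5 passed, and without replicate 3 1 passed.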

How the results depend on the processing

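The calls between XY control and XX control and between XY KO and XY control, and those of the E12.5 interaction, stayed within 1.5 times of the reported counts under every alternative run. At E11.5 the first went down to 6 members, without Amh and Aard. Comparisons with few calls moved. For XX KO against XX control, DESeq2 called 1 member at E11.5 (Mmd2) and 2 at E12.5 (Ptgds and Aard), and leaving out libraries gave 0 to 1 at both stages. For XY KO against XX control at E11.5, library size as the only scaling gave 0, only the libraries compared 2 (Adamts16 and Cst9), and leaving out libraries 0 to 1, and at E12.5 leaving out libraries gave 1 to 6. For XY KO against XX KO at E12.5, only the libraries compared gave 0 and leaving out libraries 2 to 4. For the E11.5 interaction DESeq2 gave 1, with no adjusted p for the other 8 members, and leaving out libraries 1 to 7. The cause of these changes was not tested. Depth limits the mutant levels, where Amh had 174 counts in all E12.5 XY KO libraries and 37 in XX control.

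Directions turned only for differences that were not called. With library size as the scaling Nt5e at E11.5 was -0.020 in XY KO against XY control (98.6% left), and Defb19 at E12.5 was -0.037 in XY KO against XX KO (-0.0068 without the filter). Adamts16 in XX KO against XX control at E12.5 was -0.0039 with DESeq2 size factors in edgeR and -0.0038 in DESeq2. With 1 library left out, E11.5 values that turned were, for Nt5e, -0.36 to 0.38 (XY control against XX control), -0.19 to 0.55 (XY KO against XY control, 87.8 to 147% left), -0.34 to 0.035 (XX KO against XX control) and -0.021 to 0.72 (interaction). In XX KO against XX control they were -0.13 to 0.30 for Amh and -0.48 to 0.51 for Ptgds. In XY KO against XX control they were -0.16 to 0.52 for Amh and -0.47 to 0.46 for Ptgds. In XY KO against XX KO they were -0.27 to 0.41 for Amh, -0.67 to 0.64 for Ptgds, -0.14 to 0.21 for Cbln4 and -0.0032 to 0.39 for Aard. At E12.5 they were, in XX KO against XX control, -0.53 to 0.019 for Cst9, -0.090 to 0.12 for Adamts16, -0.22 to 0.44 for Tesc, -1.13 to 0.20 for Mmd2 and -0.37 to 0.40 for Defb19, and for Defb19 -0.21 to 0.40 against XX control and -0.30 to 0.35 against XX KO in XY KO. Of 2362 fold changes and shares of single members under the alternatives, 2225 kept direction and side of the threshold, 71 lost a call, 18 gained one and 48 turned. Values for which DESeq2 gave no adjusted p are not counted.

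No pairing by replicate number was seen. Deviations of same-numbered libraries from their group means correlated between -0.18 and 0.33 at E11.5 and from -0.35 to 0.27 at the later stage. Libraries with different numbers gave -0.26 to 0.33 and -0.35 to 0.33. With 3 libraries per group this check cannot exclude a pairing. With a replicate block, XY KO against XX control at E11.5 had 0 calls in place of 1, and no other count of members moved by over 1.5 times.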
